A study of Mus musculus with 6 samples.

Results

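Desmosomes are the spot-like junctions that anchor the keratin filaments of neighbouring epithelial cells to each other. Desmosomal cadherins (desmogleins and desmocollins) reach across the gap between cells, the armadillo proteins plakoglobin and plakophilins bind their tails, and plakins tie this plaque to keratin. Simple epithelia such as that of the colon are known to use desmoglein 2, desmocollin 2, plakophilins 2 and 3, plakoglobin and desmoplakin, while desmocollin 3, plakophilin 1, envoplakin and periplakin are best known from stratified epithelia such as skin. Expression of 10 genes of this junction was examined: the cadherins Dsg2, Dsc2 and Dsc3, the armadillo genes Jup, Pkp1, Pkp2 and Pkp3, and the plakins Dsp, Ppl and Evpl. They were chosen by name out of 18193 genes, and each was read from its most intense probe set, that with the highest mean over the 6 arrays.

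RNA came from the proximal colon of 3 Hnf4α mutant mice and 3 control littermates at 1 year of age, with 1 Affymetrix mouse genome array per mouse. Mutants were VilCre/Hnf4α loxP-loxP mice, in which Cre driven by the Villin promoter acts in intestinal epithelium, and controls were labelled wildtype, with no strain or Cre status given in the sources used here. All mice had received ketamine and xylazine before sacrifice. Values are log2 signals normalised by RMA, in which a step of 1 is a doubling, and signals of different probe sets cannot be ranked against each other.

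Hnf4a itself was lower in all 3 mutants, with a log2 fold change of -1.94 ± 0.10 (standard error) and a limma adjusted p of 0.000788. Mutant replicate 1 was labelled female, but Xist, the RNA of the inactive X chromosome, lay between 5.03 and 5.32 in the 3 mutants against 9.94 to 10.96 in the 3 controls, so that sex and genotype cannot be told apart in any comparison here. The Y-linked genes, which these controls lack, gave signals from 2.75 to 4.01 in the controls, taken as the signal of an absent RNA. Mutant replicate 2 stood apart: its 14 smooth muscle markers had a median of -3.84 relative to the control mean, while mutant replicates 1 and 3 had -0.29 and -0.46. In whole tissue, fewer cells of a type and less RNA per cell cannot be told apart.

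None of the 10 genes passed an adjusted p of 0.05 in limma, a threshold that 0.879% of all genes passed (0.484% higher and 0.396% lower in the mutants). At an unadjusted p of 0.05 or less, 4 of the 10 were counted, against 16.2% of all genes, and SAM, the test named in the methods, also counted 4 (15.5% of all genes). Evpl, Ppl and Jup were the 3 that were higher, and Pkp1 was the 1 that was lower. These were also the 4 genes for which the values of mutants and controls did not overlap, which was the case for 23.3% of all genes (14.5% with the mutants above and 8.86% with the mutants below). Log2 fold changes were positive for 7 and negative for 3, with a median of 0.23 beside 0.05 over all genes. The median was 0.09 without control replicate 3, and 0.08, with 5 positive and 5 negative values, when each array was shifted by its gut epithelium markers.

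**Figure D1:**
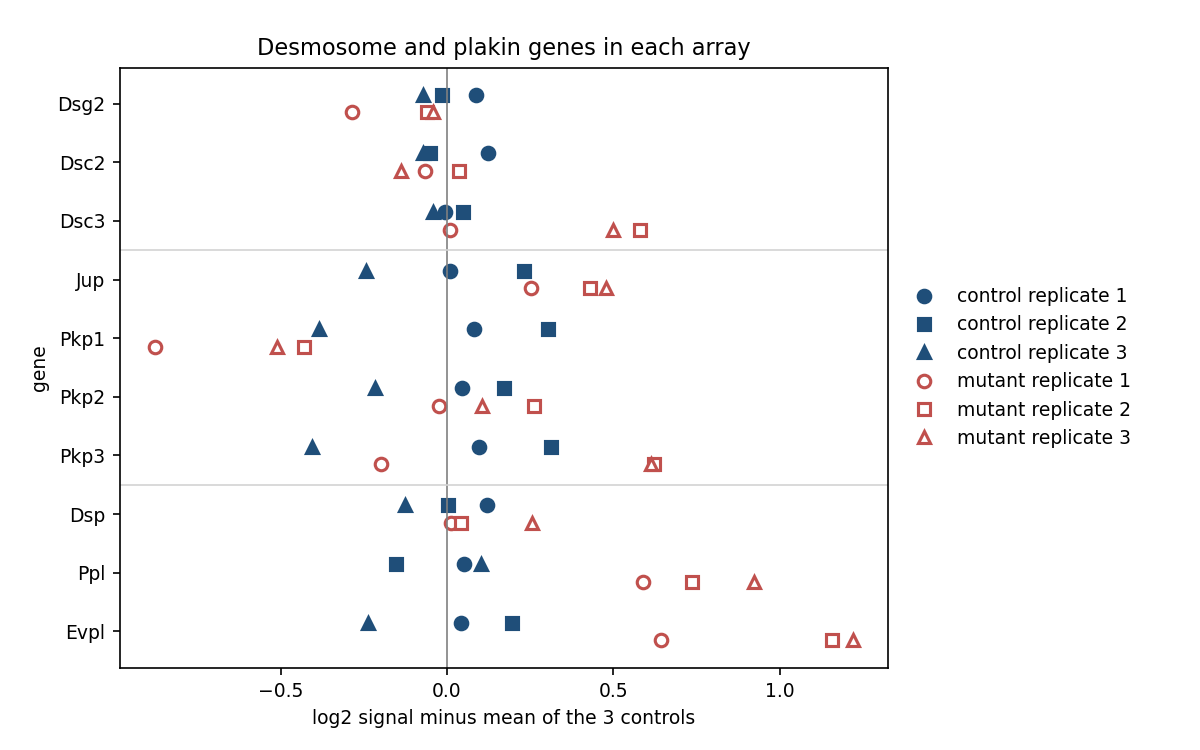
Difference of each array from the control mean in log2 signal (horizontal axis) for the 10 genes, with cadherins at the top, armadillo genes in the middle and plakins at the bottom; filled symbols are controls, open symbols mutants, and the shape gives the replicate. All open symbols of Evpl (0.64 to 1.22) and Ppl (0.59 to 0.92) lie to the right of the filled ones and those of Pkp1 (-0.88 to -0.43) to the left, while those of Dsg2, Dsc2, Pkp2 and Dsp overlap with the controls.

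Among the plakins, Evpl and Ppl were higher in every mutant while Dsp was nearly level. Evpl encodes envoplakin, and Ppl encodes periplakin. The 2 proteins are known to pair with each other at the desmosome and to serve as an early scaffold of the cornified envelope of skin. Control replicates 1, 2 and 3 gave Evpl log2 signals of 7.97, 8.12 and 7.69, and mutant replicates 1, 2 and 3 gave 8.57, 9.08 and 9.15. The lowest mutant lay 0.45 above the highest control, and mutant replicate 1 was the lowest of the mutants. That difference is a log2 fold change of 1.01 ± 0.19 (standard error), with a 95% confidence interval from 0.56 to 1.45 and a limma adjusted p of 0.0942, a ratio of 2.01 between 1.47 and 2.74. Evpl was the only 1 of the 10 genes that reached a ratio of 2 at an unadjusted p of 0.05 or less, which 2.33% of all genes did.

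Periplakin RNA differed by less than that of envoplakin, with a smaller standard error. Control replicates 1, 2 and 3 gave Ppl log2 signals of 7.00, 6.79 and 7.05, and mutant replicates 1, 2 and 3 gave 7.53, 7.68 and 7.87. The groups were 0.48 apart at their closest. The difference, as a log2 fold change, was 0.75 ± 0.13 (standard error), with a 95% confidence interval from 0.45 to 1.05 and a limma adjusted p of 0.0698, a ratio of 1.68 between 1.37 and 2.07. Neither gene passed the adjusted threshold with any 1 array left out, where adjusted p lay between 0.0591 and 0.300 for Evpl and between 0.0801 and 0.242 for Ppl. With array weights in limma, which lower the influence of variable arrays, both passed (adjusted p = 0.0429 for Evpl and 0.0403 for Ppl), and Ppl also passed when the probe sets of each gene were averaged before the fit, which changed the values of other genes and lowered the number of features from 45037 to 18193 (adjusted p = 0.0408).

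Dsp encodes desmoplakin, the plakin that every desmosome needs to hold keratin filaments. Log2 signals in control replicates 1, 2 and 3 were 12.19, 12.08 and 11.95, and those in mutant replicates 1, 2 and 3 were 12.08, 12.11 and 12.33. The groups overlapped, and the log2 fold change was 0.10 ± 0.11 (standard error), with a 95% confidence interval from -0.17 to 0.37 and a limma adjusted p of 0.720. A ratio above 1.30 or below 0.891 lies outside this interval. The other 2 probe sets of Dsp gave -0.04 (standard error 0.11) and 0.22 (standard error 0.16), so that its direction differed between probe sets.

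The armadillo genes had differences of both signs. Jup encodes plakoglobin, which sits in both desmosomes and adherens junctions. Log2 signals in control replicates 1, 2 and 3 were 10.30, 10.53 and 10.05, and those in mutant replicates 1, 2 and 3 were 10.55, 10.72 and 10.77. The mutants lay above the controls, but mutant replicate 1 exceeded control replicate 2 by only 0.02. Between the groups the log2 fold change was 0.39 ± 0.14 (standard error), with a 95% confidence interval from 0.05 to 0.72 and a limma adjusted p of 0.336.

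Pkp1 was the 1 gene whose mutants all lay below the controls. It encodes plakophilin 1, known from the upper layers of skin, where its loss in humans causes skin fragility. Control replicates 1, 2 and 3 gave Pkp1 log2 signals of 8.30, 8.52 and 7.83, and mutant replicates 1, 2 and 3 gave 7.34, 7.78 and 7.70. The gap between the groups was 0.05, set by control replicate 3. Mutant minus control, the log2 fold change was -0.61 ± 0.20 (standard error), with a 95% confidence interval from -1.09 to -0.12 and a limma adjusted p of 0.298, a ratio of 0.657.

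Plakophilin 2 and plakophilin 3 are the plakophilins of simple epithelia. Pkp2 had log2 signals of 9.18, 9.30 and 8.92 in replicates 1, 2 and 3 of the controls, and 9.11, 9.39 and 9.24 in those of the mutants. The groups overlapped, with a log2 fold change of 0.11 ± 0.13 (standard error), with a 95% confidence interval from -0.21 to 0.43 and a limma adjusted p of 0.743. Its second probe set gave 0.19, and 2 dimmer ones gave -0.14 and -0.09, so that the direction was not settled.

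For Pkp3 the mutants split. Log2 signals in control replicates 1, 2 and 3 were 9.18, 9.39 and 8.68, and those in mutant replicates 1, 2 and 3 were 8.88, 9.71 and 9.70. Mutant replicates 2 and 3 lay above all controls, while mutant replicate 1 lay below 2 of them. This gave a log2 fold change of 0.35 ± 0.28 (standard error), with a 95% confidence interval from -0.31 to 1.00 and a limma adjusted p of 0.614, and a second probe set gave 0.44 (standard error 0.25). This interval is the widest of the 10 genes, and the log2 fold change was 0.14 without control replicate 3 and 0.62 without mutant replicate 1.

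The desmosomal cadherins of simple epithelia stayed close to their control values in the data as deposited. Dsg2, desmoglein 2, had log2 signals of 12.29, 12.19 and 12.13 in replicates 1, 2 and 3 of the controls, and 11.92, 12.15 and 12.17 in those of the mutants. The groups overlapped, with mutant replicate 1 the lowest array. The log2 fold change was -0.13 ± 0.11 (standard error), with a 95% confidence interval from -0.38 to 0.13 and a limma adjusted p of 0.627. Its other 5 probe sets all gave small negative values, from -0.19 to -0.04, and none of them passed the test.

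Dsc2, desmocollin 2, had log2 signals of 10.86, 10.69 and 10.66 in replicates 1, 2 and 3 of the controls, and 10.67, 10.77 and 10.60 in those of the mutants. The groups overlapped. The difference, as a log2 fold change, was -0.06 ± 0.10 (standard error), with a 95% confidence interval from -0.30 to 0.19 and a limma adjusted p of 0.835, and its second probe set gave -0.05. For Dsg2 and Dsc2 together, ratios below 0.767 or above 1.14 lie outside the intervals. This holds for the values as deposited, without a shift by epithelial markers.

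Dsc3, desmocollin 3, is known from the basal layers of stratified epithelium. Log2 signals in control replicates 1, 2 and 3 were 4.38, 4.44 and 4.35, and those in mutant replicates 1, 2 and 3 were 4.40, 4.97 and 4.89. All of these values were just above the background range of Y-linked genes, with mutant replicate 1 among the controls and the other mutants higher. Between the groups the log2 fold change was 0.36 ± 0.16 (standard error), with a 95% confidence interval from -0.02 to 0.74 and a limma adjusted p of 0.402. The second probe set of Dsc3 lay between 3.27 and 3.48 in all arrays, within the signal of the Y-linked genes, and could not measure a difference.

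**Figure D2:**
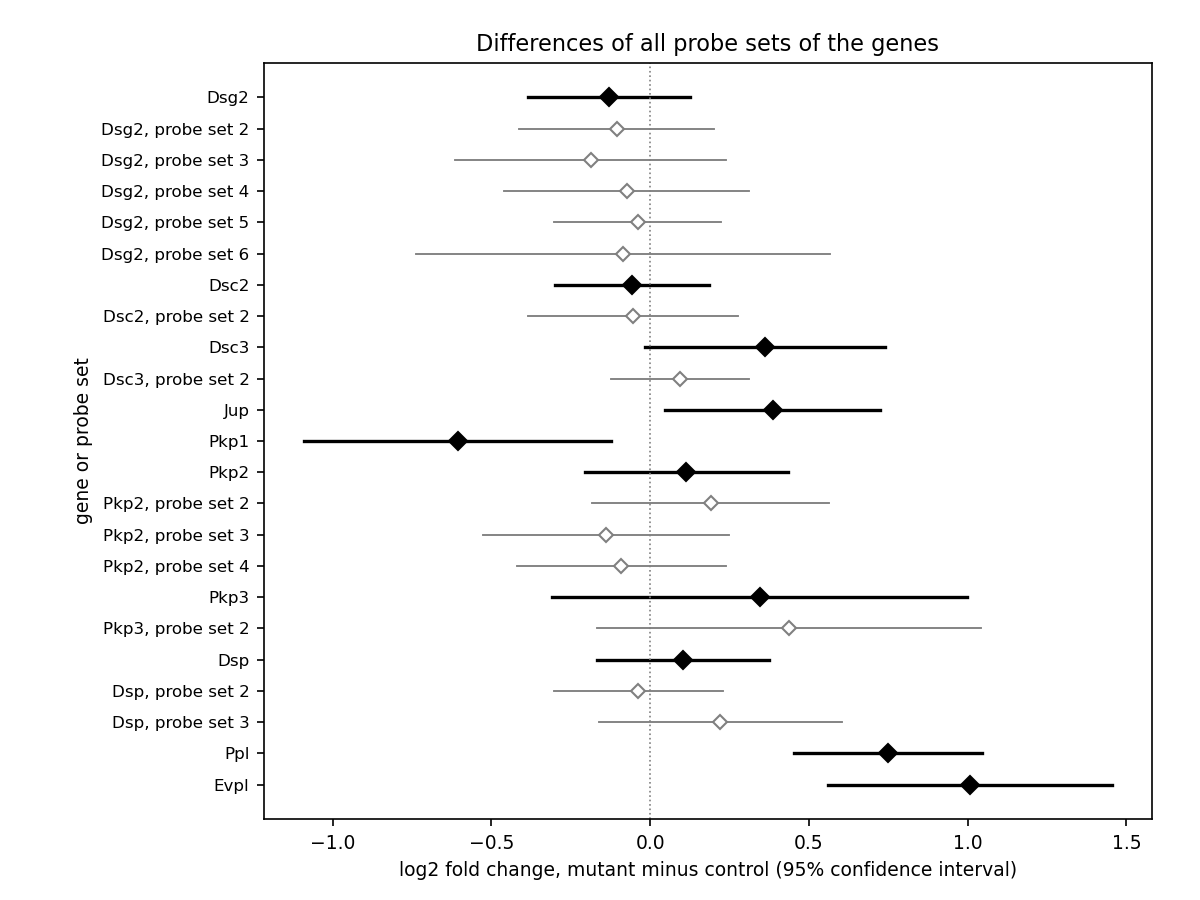
Log2 fold change, mutant minus control, with its 95% confidence interval (horizontal axis) for the 23 probe sets of the 10 genes; black symbols are the most intense probe set of each gene and grey open symbols its others. The intervals of Evpl (0.56 to 1.45), Ppl (0.45 to 1.05), Jup and Pkp1 leave out 0, while the 6 probe sets of Dsg2 all sit slightly below 0.

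The genes that code for the cadherins are neighbours. In the RefSeq annotation of GRCm38.p6 the 9 desmosomal cadherin genes stand side by side on 1 chromosome in the order Dsc3, Dsc2, Dsc1, Dsg1c, Dsg1a, Dsg1b, Dsg4, Dsg3 and Dsg2, with no other protein-coding gene among them. Of those measured and not yet described, Dsc1 (3.33 in controls), Dsg1a (2.77) and Dsg1b (2.59) had control means at or below the signal of the Y-linked genes. Dsg1c, Dsg4 and Dsg3 were not measured. Among the measured genes of the cluster, the signals well clear of that background were therefore those of Dsc2 and Dsg2, with Dsc3 just above it.

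Differences between genes within an array describe how unequal the members were. The difference between 2 log2 signals of the same array, set to 0 at the mean of the controls, removes a shift that a whole array shares. It was taken for 6 pairs, chosen after their values were seen and therefore given without a test. A lack of overlap in such pairs restates the values above and is no separate support. Evpl minus Dsp was 0.63, 1.11 and 0.96 in mutant replicates 1, 2 and 3, with a mean of 0.90 ± 0.25 (SD, n = 3), and Ppl minus Dsp was 0.58, 0.69 and 0.67, with a mean of 0.65 ± 0.06 (SD, n = 3). The control values had an SD of 0.17 and 0.20, and the groups did not overlap in either pair. Evpl minus Ppl was 0.26 ± 0.19 (SD, n = 3), and there the groups overlapped.

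Plakophilin 1 was set beside its relatives in the same way. Pkp1 minus Pkp3 was -0.68, -1.05 and -1.12 in mutant replicates 1, 2 and 3, with a mean of -0.95 ± 0.24 (SD, n = 3), against an SD of only 0.02 in the controls, where both genes followed each other from array to array. Pkp1 minus Pkp2 was -0.72 ± 0.12 and Jup minus Pkp1 was 0.99 ± 0.14 in the mutants (SD, n = 3). In all 3 of these pairs the groups did not overlap, but all 3 use the same Pkp1 values and were chosen with them known.

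Part of the spread within each group was shared between genes. Control replicate 3 had the lowest value of the controls for 9 of the 10 genes, and mutant replicate 1 the lowest of the mutants for 9 of the 10. Relative to the control mean, the median over the 10 genes was 0.07, 0.11 and -0.17 in replicates 1, 2 and 3 of the controls and -0.01, 0.35 and 0.37 in those of the mutants. By class, the plakins stood at 0.59, 0.74 and 0.92 in the mutants, the armadillo genes at -0.11, 0.35 and 0.29, and the cadherins at -0.07, 0.04 and -0.04. Only the plakins had all mutants above all controls at this level. With 3 genes in that class, its median in each mutant was the value of Ppl, while Dsp overlapped with the controls.

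The median of markers of gut epithelium, the cells that carry most desmosomes of the colon, moved in a similar order. The 12 such markers had medians of 0.04, -0.01 and -0.06 in replicates 1, 2 and 3 of the controls and of 0.03, 0.20 and 0.21 in those of the mutants, and none of them passed the test. Single markers differed in direction: Vil1 (-0.30), Cldn3 (-0.13), Epcam (-0.09) and Tjp3 (-0.01) had negative log2 fold changes. The others had positive ones, up to 0.75 for Krt18. When each array was shifted by this median, Evpl had a log2 fold change of 0.86 and Ppl of 0.60, Pkp1 had -0.75, and Dsp (-0.04) and Pkp2 (-0.03) changed sign.

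The arrays also differed in markers of other cells. In mutant replicate 2 the median of 15 markers of fibroblasts and matrix was -3.11, against -0.28 and -0.39 in the other mutants, and that of 8 endothelial markers was -1.62, against -0.28 and -0.53. The linear signal of all 14 smooth muscle markers summed to between 47944 and 51374 in the controls and to between 3591 and 42027 in the mutants. The 7 measured immune markers had medians of -0.37, -1.05 and -0.05 in mutant replicates 1, 2 and 3, against -0.06 to 0.14 in the controls. Of these, Itgam (0.15) and S100a8 (0.56) had positive log2 fold changes and the others negative ones, and none passed the test. Markers of neurons and glia had medians of 0.10, -0.28 and -0.30 in the mutants. Without mutant replicate 2, Evpl had 0.93, Ppl 0.75 and Pkp1 -0.69, close to their values over all arrays.

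Mesothelium, the lining of the outer gut surface, is another tissue with desmosomes, and the median of its 6 markers was -0.08, 1.13 and 0.43 in mutant replicates 1, 2 and 3. Muc16, a mucin, had log2 signals of 7.05, 8.55 and 4.81 in replicates 1, 2 and 3 of the controls, and 8.48, 10.03 and 9.94 in those of the mutants. Upk3b, an uroplakin, had 6.16, 6.25 and 5.80 in the controls and 6.30, 7.31 and 6.50 in the mutants, all above the controls. Lrrn4 was 4.65, 7.31 and 5.62 and Msln 5.18, 6.14 and 5.56 in the mutants, each overlapping with the controls. Wt1 (-0.01) and Upk1b (-0.03) had log2 fold changes near 0, and none of the 6 passed the test. The part of the mesothelial markers in the values of the desmosome genes was not tested.

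Squamous epithelium, where Evpl, Ppl, Pkp1 and Dsc3 are abundant, was checked as well. The 8 measured squamous markers had medians of 0.11, 0.19 and -0.01 in mutant replicates 1, 2 and 3, against -0.11 to 0.16 in the controls, and their summed linear signal was 254 to 287 in the controls and 275 to 304 in the mutants. Krt5 and Krt14, the keratins of basal cells, had log2 fold changes of -0.07 and 0.14, and Trp63, the regulator of stratified epithelium, had 0.16. Krt13, a keratin of moist squamous linings, was the exception, with controls at 3.89, 4.40 and 3.89 and mutants at 4.93, 5.13 and 5.01. Control replicates 1 and 3 lay within the signal of the Y-linked genes. Its log2 fold change of 0.96 ± 0.16 (standard error) and a limma adjusted p of 0.0684 did not pass the test. Markers of heart muscle, another desmosome-rich tissue, had medians between -0.01 and 0.09 in the mutants. Their signals lay between 3.24 and 5.02, and those of the squamous markers between 3.74 and 6.13. These are at or not far above the Y-linked signals of up to 4.01, where a difference may not be measured.

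**Figure D3:**
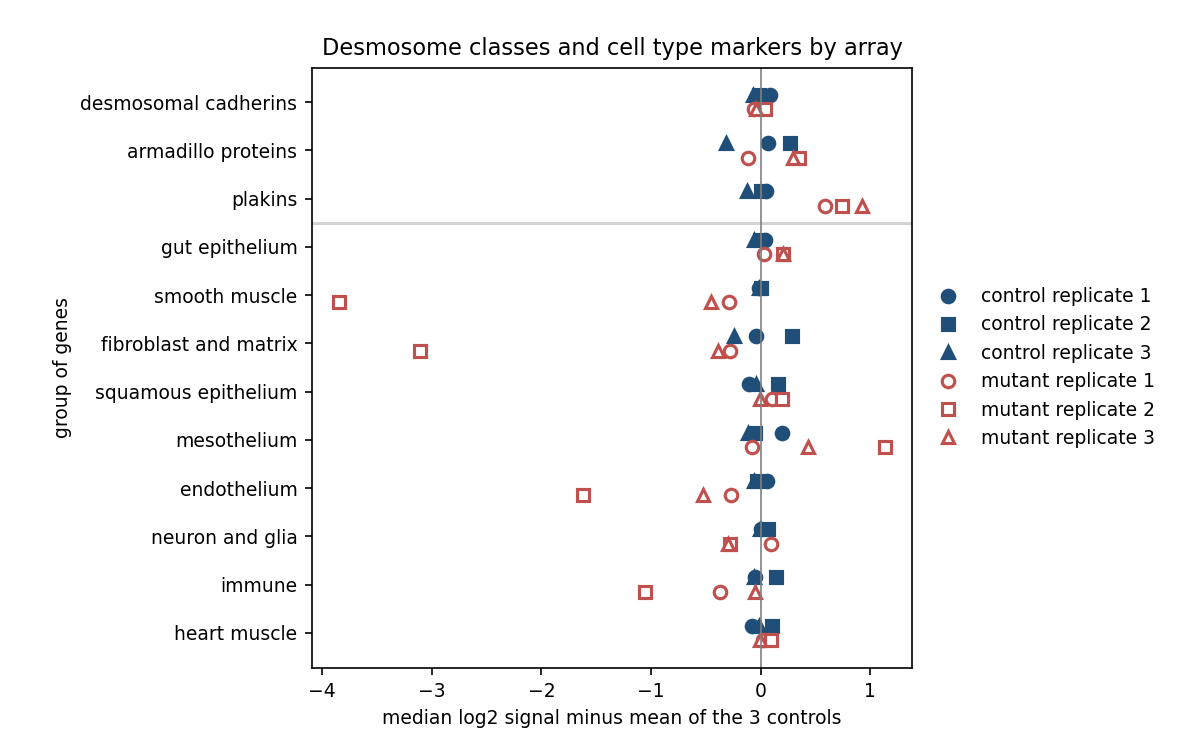
Median difference of each array from the control mean in log2 signal (horizontal axis) for the 3 desmosome classes and for lists of cell type markers in each array; filled symbols are controls, open symbols mutants, and the shape gives the replicate. The plakin median (0.59 to 0.92), which in each mutant is the value of Ppl, is above the controls in every mutant. Smooth muscle (-3.84) and fibroblast markers (-3.11) lie far to the left in mutant replicate 2 alone.

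Most other genes related to the desmosome did not pass the test. Of 11 measured genes, 1 rose and none fell by the limma threshold. Log2 fold changes were positive for 9 and negative for 2, with a median of 0.18 beside 0.05 over all genes. Dsg1a, Dsg1b and Dsc1 had no array above the highest signal of the Y-linked genes in the controls and could not measure a difference. The gene that rose was Trim29 (3.44, adjusted p = 0.0174), a TRIM protein of stratified epithelium and no part of the junction itself. It was not called without replicate 1 (3.16) or 3 (3.56) of the controls or replicate 3 of the mutants (3.30). Tchp, trichoplein, a keratin-binding protein, had 0.33 (standard error 0.12, adjusted p = 0.337), and Pof1b, an actin-binding protein found at junctions, had 0.42 (standard error 0.25, adjusted p = 0.504). Perp, a membrane protein that desmosomes need in skin, had 0.31 (standard error 0.20, adjusted p = 0.524).

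The remaining plakins did not follow Evpl and Ppl. Of Plec (0.21), Dst (-0.11), Macf1 (-0.21) and Eppk1 (-0.48), which encode plectin, dystonin, the microtubule-actin crosslinker and epiplakin, none passed the test. Eppk1, a plakin that binds keratins of simple epithelia, had log2 signals of 9.48, 9.42 and 9.91 in replicates 1, 2 and 3 of the controls, and 9.29, 9.01 and 9.06 in those of the mutants. All its mutants lay below the controls (standard error 0.16, adjusted p = 0.287 from limma).

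Keratins are the filaments that desmosomes hold. None of 17 passed the test, 12 had positive and 5 negative log2 fold changes, and the median was 0.10. Apart from Krt13, the smallest p belonged to keratins of simple epithelium: Krt18 had 0.75 (standard error 0.15, adjusted p = 0.112), and Krt19 had 0.45 (standard error 0.10, adjusted p = 0.153). Their mutants lay above all controls, as did those of Krt7 (0.95), Krt8 (0.17) and Krt13, whereas Krt20, the keratin of mature surface colonocytes, had -0.49 with all mutants below (standard error 0.17, adjusted p = 0.313).

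Hemidesmosomes anchor keratins to the basement membrane. Among 6 measured genes none passed the test, and the median was 0.12. Itga6 and Itgb4, the 2 chains of the hemidesmosomal integrin, had 0.51 (standard error 0.12, adjusted p = 0.149) and 0.34 (standard error 0.12, adjusted p = 0.321), with all mutants above the controls for both. Lama3, a laminin chain, had -0.46 (standard error 0.29, adjusted p = 0.531).

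In the adherens junction, 1 of 8 genes rose and none fell, and the median was 0.19. Nectin4, an adhesion molecule whose loss in humans causes a disorder of skin and digits, had log2 signals of 5.07, 5.19 and 5.20 in replicates 1, 2 and 3 of the controls, and 5.97, 6.28 and 6.32 in those of the mutants. The groups were well apart, and the log2 fold change was 1.04 ± 0.12 (standard error) and a limma adjusted p of 0.0238. With 1 array left out, the call was lost without replicate 1 (0.99) or 3 (1.06) of the controls and without replicate 2 (0.99) or 3 (0.97) of the mutants, while the size stayed close. Ctnnd1, which encodes the catenin p120 related to the plakophilins, had 0.48 (standard error 0.11, adjusted p = 0.170), and Ctnnb1, the catenin most like plakoglobin, had -0.07 (standard error 0.12, adjusted p = 0.834).

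The cornified envelope is the protein shell of dead skin cells, for which Evpl and Ppl provide an early scaffold. Of its 11 measured genes 2 rose, none fell, and the median was 0.31. Csta1, a cystatin protease inhibitor, had log2 signals of 3.26, 3.57 and 2.91 in replicates 1, 2 and 3 of the controls, within the range of the Y-linked genes, and 9.98, 10.88 and 11.09 in those of the mutants. Against the highest signal of those genes in the controls, 4.01, the mean of the mutants was 6.64 higher on the log2 scale. For mutants against controls, the limma adjusted p was 0.000271. Sprr2h, a small proline-rich protein, rose by 4.64 (standard error 0.51, adjusted p = 0.0192), on a probe set whose name marks it as shared by related transcripts. Sprr2h was not called without replicate 1 (4.33) or 3 (4.48) of the controls, nor without replicate 2 (4.73) or 3 (4.21) of the mutants. At an unadjusted p of 0.05 or less 6 of the 11 were higher and none was lower, against 16.2% of all genes in either direction. The same number, 6, had all mutants above the controls, against 14.5% of all genes. The list was chosen with earlier results known. Scel, sciellin, had 0.56 (standard error 0.22) and Sprr3 had 0.40 (standard error 0.14), and Sprr1b had 0.31 (standard error 0.11) with all arrays within the signal of the Y-linked genes. Of the classical envelope proteins, Ivl, involucrin, had 0.22 (standard error 0.16, adjusted p = 0.584), and Tgm1, the transglutaminase that crosslinks the envelope, had -0.07 (standard error 0.14, adjusted p = 0.856), with overlapping groups. Lor, loricrin, had -0.13 (standard error 0.10, adjusted p = 0.600) with all mutants below the controls. Sprr1a, another small proline-rich protein, had 3.22 with a wide error (standard error 0.88, adjusted p = 0.216), since its controls ranged from 6.83 to 10.52.

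**Figure D4:**
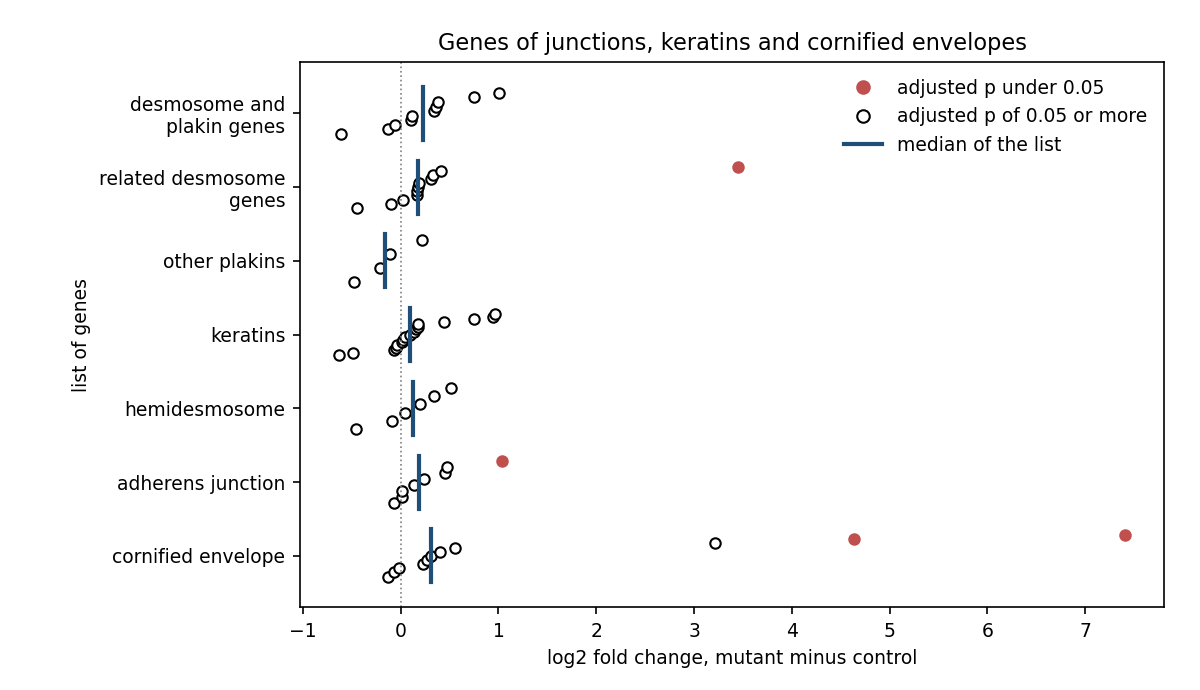
Log2 fold change, mutant minus control (horizontal axis), of each measured gene in the 10 desmosome and plakin genes and in 6 lists of related genes; filled red symbols passed an adjusted p of 0.05, open symbols did not, and blue lines are the medians. The medians lie between -0.16 for other plakins and 0.31 for the cornified envelope, and the 4 called genes are Trim29, Nectin4, Sprr2h and Csta1, the last plotted at its measured difference from controls at background.

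Because Hnf4α acts by binding DNA, the stretch before the transcription start was read for Dsp and Jup, the 2 of the 10 genes held by the RefSeq promoter table used here. Neither passed the test, and the windows are shown as the upstream sequence at hand for the members. Each sequence is the 250 bases before the start, 5′ to 3′ on the strand of the gene, in GRCm38.p6, and capitals mark the GC box GGGCGG on either strand.
Dsp, chr13:38151044-38151293, plus strand: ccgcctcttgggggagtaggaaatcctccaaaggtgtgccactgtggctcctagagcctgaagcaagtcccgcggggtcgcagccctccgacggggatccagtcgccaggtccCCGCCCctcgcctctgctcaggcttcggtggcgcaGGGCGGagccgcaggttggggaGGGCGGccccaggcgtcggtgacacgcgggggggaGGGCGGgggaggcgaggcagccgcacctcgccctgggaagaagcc
Jup, chr11:100397791-100398040, minus strand: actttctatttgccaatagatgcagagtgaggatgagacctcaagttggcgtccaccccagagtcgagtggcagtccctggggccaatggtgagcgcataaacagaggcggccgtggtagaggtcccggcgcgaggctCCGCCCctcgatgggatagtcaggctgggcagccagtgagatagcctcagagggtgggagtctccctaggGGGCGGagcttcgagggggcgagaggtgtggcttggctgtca
The HNF4 motif CAAAGTCCA was found on neither strand of either window. It occurs in 0.384% of the 32851 windows of the same length in that table. The motif AACCGGTT of the Grainyhead factors of epithelial barriers was likewise absent from both (0.116% of all windows). The GC box occurred 4 times in Dsp and 2 times in Jup, and in at least 1 copy in 32.7% of all windows. A missing match says only that these letters are not in this window.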

How the data were processed

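RNA of 6 colons had been labelled and hybridised to Affymetrix mouse genome arrays, 1 per mouse. The authors normalised all arrays together by RMA in FlexArray and deposited log2 values, which were used as given. RMA sets the arrays to 1 common distribution, so a shift shared by most genes would not be seen. Array medians lay between 5.43 and 5.53, and the number of arrays limits the precision. Whether mice were bred or processed in batches is not given in the sources used here.

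The 64 control probe sets were set aside, and the other 45037 were fitted with limma 3.58.1 in R 4.3.3, mutant minus control, without covariates. P-values were adjusted over all of them by the Benjamini-Hochberg method, and the threshold was 0.05. Of these probe sets 34945 carried 1 gene symbol of the platform annotation, 932 several and 9160 none. A gene was the probe set with the highest mean among those with its symbol alone, which gave 18193 genes. The probe sets read for Jup, Dsp, Pkp2 and Hnf4a, among others, have names with the same mark of shared transcripts as that of Sprr2h. Every measured gene of the lists, 126 of 135, was found by its platform symbol. The 10 genes and all lists were chosen with earlier results of these data known. All 10 genes are described, and from each list those called or up to 3 with the smallest p are named, with some others chosen after their values were seen. SAM followed the methods of the study, with p from the 20 assignments of labels. The scripts were tested on simulated data. Alternatives were array weights, an intensity trend, 2 other scalings, a filter on dim probe sets, other probe sets, a block for the replicate number and leaving out each array. Testing without probe sets of genes on the X and Y chromosomes was chosen after seeing the data.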

Additional observations from a re-analysis of the deposited data

How the results depend on the processing

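No gene of the 10 was called with any 1 array left out (0 to 0 called), with an intensity trend, quantile normalization, the shift by gut epithelium markers, brighter probe sets only, second probe sets or without genes on the X and Y chromosomes. Array weights called 2 (Evpl and Ppl), and the mean of each gene's probe sets called 1 (Ppl), where other genes' values changed and fewer features were tested. Without adjustment, SAM and limma counted 4, and limma with a ratio of 2 or more counted 1. The median log2 fold change lay between 0.09 and 0.32 with 1 array left out and was 0.08 after the shift by gut epithelium markers. Many alternatives could not turn a sign, so a count of kept directions is no measure of stability. The intensity trend, the replicate block and both filters on probe sets leave each log2 fold change as it was. Genes with 1 probe set have no other to use, and second probe sets are counted in both settings that use them. With this limit, of 162 values of single genes under alternatives, 152 kept their direction without being called, 3 kept it and were called, and 7 turned sign. Those were Dsc2 without control replicate 1 (0.0050, in a range from -0.103 to 0.0050 with 1 array left out), Dsp after the epithelial shift (-0.042) and by its second probe set in both settings that use it (-0.037), and Pkp2 after that shift (-0.033) and by 2 dim probe sets (-0.138 and -0.091), and the cause was not tested. Whether replicate numbers pair the mice was not settled, since 3 arrays per group are too few to decide it. Deviations of same-numbered arrays correlated at -0.02, 0.25 and -0.15, and 2 of 6 arrays correlated best with their own number. With the replicate block none of the 10 was called (0), Nectin4 and Sprr2h were no longer called (adjusted p = 0.0642 for both), Trim29 and Csta1 were, and calls over all probe sets went from 239 to 62. They were 599 with array weights, 361 after the epithelial shift and from 39 to 336 with 1 array left out. Dim signals limit Dsc3, and 3 mice per group limit all values.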
